A study of Mus musculus with 11 samples.

Results

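The 10 genes described here are mouse genes of serine, asparagine and neighbouring amino acid metabolism that are known as targets of the transcription factor ATF4: *Asns*, *Psat1*, *Phgdh*, *Psph*, *Shmt2*, *Mthfd2*, *Cth*, *Cbs*, *Pycr1* and *Sesn2*. They were taken by gene name from the deposited count table, in which each had 1 entry, and they are 10 of 24849 genes. None was chosen by a threshold on its counts, but the members and the gene lists were chosen with earlier results of these data known. All 10 had enough counts to be tested in each comparison.

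ATF4 is a transcription factor whose translation is raised when kinases that sense amino acid shortage, endoplasmic reticulum stress, heme shortage or double-stranded RNA phosphorylate the initiation factor eIF2α. Together with partners of the C/EBP family it binds C/EBP-ATF response elements near genes that import and make amino acids and charge tRNAs. In the serine pathway, PHGDH, PSAT1 and PSPH turn a glycolytic intermediate into serine, and SHMT2 and MTHFD2 pass its carbon on to folate in mitochondria. ASNS makes asparagine, CBS and CTH carry the sulfur of homocysteine to cysteine with serine as the acceptor, PYCR1 closes the synthesis of proline, and sestrin 2 restrains mTORC1 when leucine is short.

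The libraries were made from polyadenylated RNA of AML12 cells, a line of hepatocytes from mice with a transgene for human TGFα. There were 4 libraries of KO cells (KO 5, 6, 7 and 8), 3 of WT cells (WT 5-6, 7 and 8) and 4 of KI cells (KI 5, 6, 7 and 8), and values are given in this order. The KO cells were transfected with a CRISPR/Cas9 plasmid and a repair plasmid against *Txndc5*, which codes for a disulfide isomerase of the endoplasmic reticulum, and were selected with puromycin; the labels name their genotype a knockdown. In the KI cells TXNDC5 was overexpressed from the ROSA26 locus, and the WT cells were neither edited nor, as far as the sources say, selected, so editing of *Txndc5* and the making of each line cannot be told apart. The sources do not say how many clones each line holds or whether libraries of 1 line came from separate cultures, so p-values measure the spread between these libraries, which may be technical.

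Totals ran from 29840366 to 38422243 counts per library, and the members had between 155 and 28261 counts. *Txndc5* had 10.2, 8.50, 12.9 and 9.39 CPM in the KO, 147, 138 and 143 in the WT and 158, 179, 176 and 162 in the KI libraries, where CPM are counts scaled to the same library size with edgeR's TMM factors. Its log2 fold change, given with the standard error (SE), was -3.81 (SE 0.15, edgeR adjusted p = 4.09e-08) in KO against WT, while in KI against WT the value was 0.24 (SE 0.12, edgeR adjusted p = 0.136); whether reads of the inserted copy count on the mouse gene is not given in the sources used here. The values stand relative to most genes, whose median log2 fold change was -0.03, -0.02 and 0.00 in KO against WT, KI against WT and KO against KI. When scaled by library totals instead, the medians were 0.38, 0.30 and 0.06, and the share of called genes that were higher moved from 48.4% to 72.8% in KO against WT and from 50.2% to 76.3% in KI against WT. The libraries also differed in composition: 1 newly assembled entry took 11.3% to 17.1% of the counts in WT, 4.32% to 6.44% in KO and 4.82% to 9.12% in KI. Counts were found for all 16 hepatocyte markers, whose sum was 10036 to 11965 CPM in KO, 7839 to 9879 in WT and 8761 to 10332 in KI, cholangiocyte markers 1373 to 1530, 3049 to 4417 and 2643 to 3128, and leukocyte markers 2.04 to 2.58, 6.64 to 9.56 and 3.24 to 6.66. The sums cover genes that moved in opposite directions. In KO against WT, 9 hepatocyte markers were called higher and 5 lower. Means in KO and WT were 4114 and 513 CPM for *Alb* but 1346 and 2974 for *Trf*. Of the 5 cholangiocyte markers tested, 1 was higher there (*Krt19*, 1097 and 770) and 4 were lower (*Spp1*, 246 and 2520). In KI against WT, 5 hepatocyte markers were called higher and 3 lower. Means in KI and WT were 4356 and 2838 CPM for *Krt8* but 246 and 513 for *Alb*. Fibroblast and endothelial markers stayed at or under 1.86 CPM, with *Col1a2*, *Col3a1*, *Lrat* and *Tek* among those at 0 counts in all libraries, as were *Epcam* of the cholangiocyte and *Adgre1* and *Clec4f* of the leukocyte markers. In bulk libraries, fewer cells of a type and less RNA per cell cannot be told apart, and the part of these marker differences in the results was not tested.

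The C/EBP-ATF response element was searched as TGATGNAA on both strands in windows of 300 bases around the transcription start of each gene. A window held 250 bases before the start and 50 after it, and was taken from RefSeq on GRCm38.p6. The element was found in the windows of 2 of the 9 members with an entry, *Asns* and *Pycr1*. It was found for 1219 of 27025 genes (4.51%) and in 1304 of 32851 windows (3.97%). A match is a description of these letters and not a site of binding. For these 2 genes the stretches of 250 bases before the start are shown with the match in capitals. The stretches were chosen because they held a match. Members without a match, such as *Shmt2* and *Mthfd2*, also differed in their counts between the lines. Both are on the minus strand and are written 5′ to 3′, at chr6:7693210-7693459 for *Asns* and chr11:120643749-120643998 for *Pycr1*.

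Asns: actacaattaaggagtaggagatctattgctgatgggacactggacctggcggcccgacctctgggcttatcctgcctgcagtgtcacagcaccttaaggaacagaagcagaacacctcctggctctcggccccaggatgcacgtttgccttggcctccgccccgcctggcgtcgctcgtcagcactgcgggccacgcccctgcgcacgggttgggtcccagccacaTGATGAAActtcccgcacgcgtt

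Pycr1: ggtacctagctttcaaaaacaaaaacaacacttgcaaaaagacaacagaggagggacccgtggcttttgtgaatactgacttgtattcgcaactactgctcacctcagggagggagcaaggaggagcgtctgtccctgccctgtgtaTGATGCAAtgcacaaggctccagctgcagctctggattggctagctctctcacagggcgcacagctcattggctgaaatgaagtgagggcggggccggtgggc

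In the *Asns* stretch the match TGATGAAA lay 23 to 16 bases before the start, and in the *Pycr1* stretch TGATGCAA lay 103 to 96 bases before it. The windows of *Phgdh*, *Psat1*, *Psph*, *Shmt2*, *Mthfd2*, *Cbs* and *Sesn2* did not hold these letters.

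In KO against WT, 8 of the 10 members rose and none fell, with 5 of them at more than a log2 fold change of 1. *Cth*, *Mthfd2*, *Asns*, *Shmt2* and *Psph* rose 2.34-fold to 5.34-fold, *Sesn2*, *Phgdh* and *Cbs* 1.59-fold to 1.81-fold, and *Psat1* and *Pycr1* were not called. A gene counted as called when its p-value from edgeR's quasi-likelihood test, adjusted over all genes tested by Benjamini-Hochberg and named edgeR adjusted p here, was under 0.05. Among all 13359 genes tested, 55.1% were called, 26.7% higher and 28.4% lower, and 10.5% were called with a log2 fold change over 1. The median log2 fold change of the members was 1.04, against -0.03 over all genes tested. In KI against WT, 5 members rose, 2 fell and 3 were not called, where 42.3% of 13534 genes were called (21.2% higher and 21% lower). Only *Phgdh* was called with a log2 fold change over 1 there (6.98% of all genes). The median of the members was 0.51, and both *Psat1* and *Pycr1*, the members not called in KO, were lower.

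**Figure D1:**
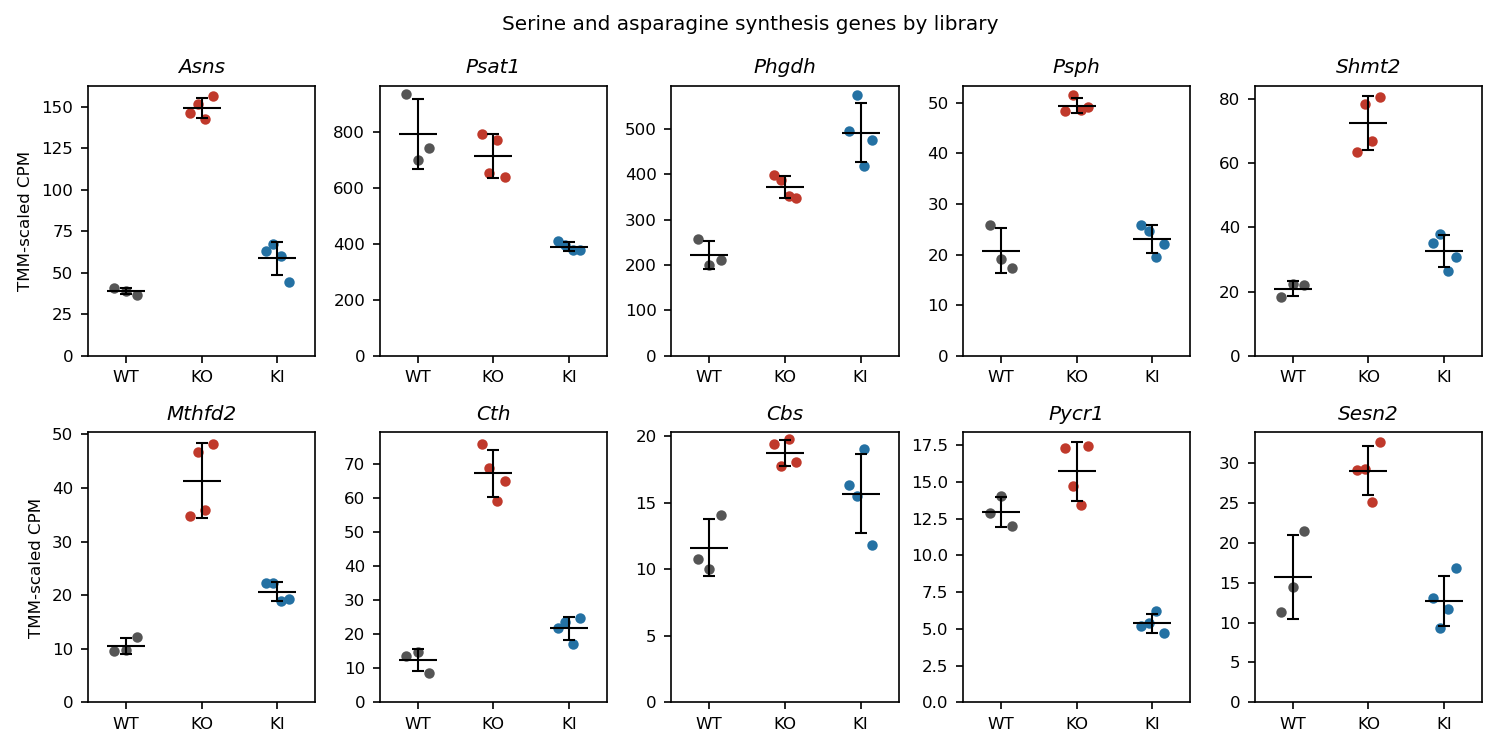
TMM-scaled CPM (vertical axes, each from 0) of the 10 members in each library of WT, KO and KI cells, 1 point per library, with the mean and SD of the group as bars. The 4 KO libraries lie above all WT libraries for 8 members, while for *Psat1* and *Pycr1* KO and WT overlap and the KI libraries lie below both.

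Asparagine synthetase, the enzyme that makes asparagine from aspartate and glutamine, differed between all 3 lines. *Asns* was at 146, 151, 143 and 156 CPM in the KO, 40.7, 39.3 and 36.9 in the WT and 63.1, 67.5, 59.97 and 44.5 in the KI libraries. The 3 lines did not overlap, with KO highest, KI between and WT lowest, and KI 8 was the KI library nearest to WT. The log2 fold change was 1.92 (SE 0.12, edgeR adjusted p = 4.95e-07) in KO against WT and 0.59 (SE 0.16, edgeR adjusted p = 0.00937) in KI against WT. KO lay above KI by 1.35 (SE 0.11, edgeR adjusted p = 1.15e-07), and this comparison is also the test of the difference between the changes of both lines from WT.

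Of the 3 enzymes of the serine pathway, *Phgdh* rose in both edited lines, *Psph* rose in KO, and *Psat1* fell in KI. *Phgdh*, whose product takes the first and committed step from 3-phosphoglycerate, had 398, 388, 353 and 348 CPM in the KO, 257, 199 and 211 in the WT and 496, 575, 418 and 474 in the KI libraries. No KO or KI library overlapped with WT, and KI was the higher of the edited lines. The log2 fold change was 0.72 (SE 0.13, edgeR adjusted p = 0.000859) in KO and 1.14 (SE 0.16, edgeR adjusted p = 0.000137) in KI, and *Phgdh* was the only member that was lower in KO than in KI, with a log2 fold change of -0.40 (SE 0.10, edgeR adjusted p = 0.00326).

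*Psat1*, the aminotransferase of the second step, had 792, 652, 769 and 639 CPM in the KO, 935, 700.0 and 741 in the WT and 409, 396, 379 and 378 in the KI libraries. KO and WT overlapped, while each KI library lay under each library of both other lines. The log2 fold change in KO against WT was -0.17 (SE 0.15, edgeR adjusted p = 0.360), and under scaling by library totals its sign turned, to 0.25 without a call. In KI against WT it fell, with a log2 fold change of -1.02 (SE 0.15, edgeR adjusted p = 0.000160), and it also fell with library totals (-0.68). *Psph*, the phosphatase of the last step, was at 48.4, 51.5, 48.7 and 49.2 CPM in the KO, 25.9, 19.1 and 17.4 in the WT and 25.9, 24.7, 19.6 and 22.2 in the KI libraries. The KO libraries lay close together and above all others, and KI overlapped with WT. Its log2 fold change was 1.23 (SE 0.15, edgeR adjusted p = 6.44e-05) in KO and 0.15 (SE 0.17, edgeR adjusted p = 0.502) in KI against WT, and 1.10 (SE 0.10, edgeR adjusted p = 2.88e-07) in KO against KI.

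The balance within the pathway can be read from counts of the same library, which no scaling changes. The ratios were chosen after the values of the genes had been seen and are given without a test. The count of *Phgdh* over that of *Psat1* was 0.502, 0.594, 0.459 and 0.544 in the KO, 0.275, 0.285 and 0.284 in the WT and 1.21, 1.45, 1.10 and 1.26 in the KI libraries, so that *Phgdh* had more counts than *Psat1* in the KI libraries and fewer in the others. The ratio of *Psph* to *Psat1* was 0.0611 to 0.0790 in KO, 0.0234 to 0.0277 in WT and 0.0516 to 0.0634 in KI, above WT in both edited lines. Since counts grow with transcript length, these ratios compare lines and not the 2 genes.

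**Figure D2:**
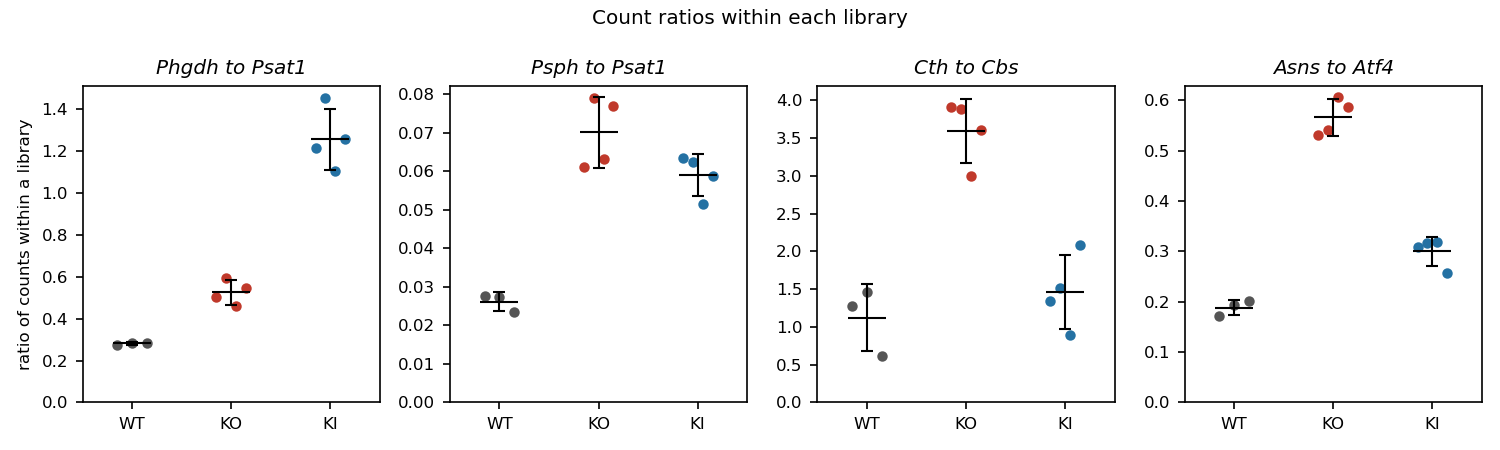
Ratios of the counts of 2 genes within each library (vertical axes, each from 0), 1 point per library, with mean and SD of each line. For *Phgdh* to *Psat1* the 3 lines separate in the order WT, KO, KI, with the KI libraries between 1.10 and 1.45, and for *Cth* to *Cbs* the KO libraries lie above the rest, whereas WT and KI overlap.

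The mitochondrial enzymes that use serine rose in both edited lines. *Shmt2*, which splits serine into glycine and a folate-bound carbon, had 63.4, 78.4, 66.9 and 80.6 CPM in the KO, 18.3, 22.3 and 22.1 in the WT and 35.2, 37.8, 26.5 and 30.7 in the KI libraries. *Mthfd2*, the dehydrogenase and cyclohydrolase that oxidises this carbon, had 34.8, 46.7, 35.8 and 48.1 in the KO, 9.63, 9.76 and 12.2 in the WT and 22.2, 22.3, 18.8 and 19.4 in the KI libraries. For both genes the 3 lines did not overlap, again with KO highest and WT lowest. The log2 fold changes of *Shmt2* were 1.77 (SE 0.15, edgeR adjusted p = 4.35e-06) in KO and 0.63 (SE 0.16, edgeR adjusted p = 0.00787) in KI against WT. Those of *Mthfd2* were 1.95 (SE 0.17, edgeR adjusted p = 7.57e-06) and 0.97 (SE 0.16, edgeR adjusted p = 0.000472). KO exceeded KI by 1.16 for *Shmt2* and 1.00 for *Mthfd2* on the log2 scale (edgeR adjusted p = 1.12e-06 and 7.61e-06). The count of *Mthfd2* per count of *Shmt2* ranged from 0.536 to 0.597 in KO, from 0.437 to 0.555 in WT and from 0.589 to 0.712 in KI, with overlap between the lines except that KI lay above WT.

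Of the transsulfuration enzymes, *Cth* had the largest change of all members in KO against WT. *Cth* codes for cystathionine gamma-lyase, which releases cysteine, and had 75.9, 68.8, 59.2 and 65.01 CPM in the KO, 13.7, 14.7 and 8.71 in the WT and 21.8, 23.5, 17.1 and 24.7 in the KI libraries. The 3 lines did not overlap, and WT 8 was the lowest library. *Cth* changed by 2.42 (SE 0.19, edgeR adjusted p = 3.53e-06) in KO and 0.81 (SE 0.20, edgeR adjusted p = 0.00684) in KI against WT, and 1.63 (SE 0.12, edgeR adjusted p = 2.36e-08) in KO against KI. *Cbs*, whose product joins serine and homocysteine, had 19.4, 17.7, 19.8 and 18.04 CPM in the KO, 10.7, 10.04 and 14.1 in the WT and 16.3, 15.5, 19.05 and 11.9 in the KI libraries. KO lay above WT, and KI overlapped with both. *Cbs* rose in KO against WT by 0.67 (SE 0.15, edgeR adjusted p = 0.00365), whereas the values were 0.43 (SE 0.19, edgeR adjusted p = 0.0879) in KI against WT and 0.26 (SE 0.14, edgeR adjusted p = 0.123) in KO against KI. The KI call changed with the fit. Without WT 8 the value was 0.59 and without KI 8 it was 0.55, both called (edgeR adjusted p = 0.0226 and 0.0342). It was also called with library totals (0.75) and with all libraries in 1 fit (0.43, edgeR adjusted p = 0.0255 and 0.0469). Without KI 7 the difference of KO from KI was 0.37 and called (edgeR adjusted p = 0.0326). The ratio of *Cth* to *Cbs* counts was 3.90, 3.88, 3.00 and 3.60 in the KO, 1.27, 1.47 and 0.620 in the WT and 1.34, 1.51, 0.897 and 2.08 in the KI libraries, which put KO above the others.

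*Pycr1*, a mitochondrial reductase at the end of proline synthesis, had 17.3, 14.7, 13.4 and 17.5 CPM in the KO, 12.9, 14.04 and 12.00 in the WT and 5.20, 5.37, 6.25 and 4.71 in the KI libraries. Like *Psat1*, it overlapped between KO and WT and was lower in each KI library than in any other. Its values were 0.26 (SE 0.15, edgeR adjusted p = 0.182) in KO and -1.26 (SE 0.17, edgeR adjusted p = 0.000125) in KI against WT, and KO exceeded KI by 1.54 (SE 0.14, edgeR adjusted p = 3.59e-07). Scaled by library totals, the KO value was 0.67 and called (edgeR adjusted p = 0.00598).

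*Sesn2*, a leucine sensor that is induced by stress, had 29.2, 29.2, 25.1 and 32.6 CPM in the KO, 11.3, 14.4 and 21.5 in the WT and 13.03, 9.37, 11.7 and 16.9 in the KI libraries. The KO libraries lay above the WT libraries, of which WT 8 was the highest, and KI overlapped with WT. *Sesn2* rose in KO against WT by 0.86 (SE 0.21, edgeR adjusted p = 0.00443) and was higher in KO than in KI by 1.19 (SE 0.15, edgeR adjusted p = 1.27e-05), whereas in KI against WT the value was -0.31 (SE 0.24, edgeR adjusted p = 0.313). The KI value was uncalled in each fit that left out 1 library, but ran from -0.49 without WT 5-6 to -0.0133 without WT 8. Among the members it had the largest spread between WT libraries, with a coefficient of variation of 33.3%.

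**Figure D3:**
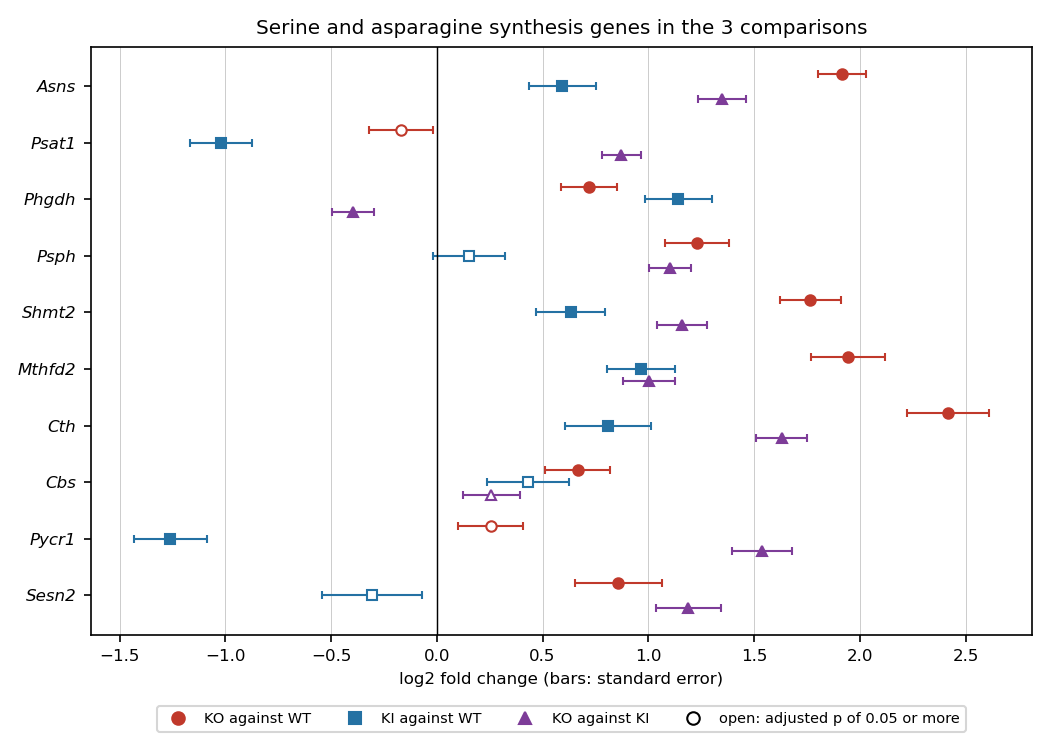
Log2 fold changes (horizontal axis) of the 10 members in KO against WT, KI against WT and KO against KI, with standard errors as bars and open symbols where the adjusted p-value was 0.05 or more. In KO against WT the values run from -0.17 for *Psat1* to 2.42 for *Cth*, in KI against WT from -1.26 for *Pycr1* to 1.14 for *Phgdh*.

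Set side by side, the changes of both edited lines from WT share the same 3 WT libraries, so that their likeness is no independent result. *Asns*, *Phgdh*, *Shmt2*, *Mthfd2* and *Cth* were higher in both, a pattern shown by 1769 of the 13068 genes tested in both (13.5%). In the direct comparison of KO with KI, 8 members were higher in KO, *Phgdh* was lower and *Cbs* was not called, where 54% of 13269 genes were called (27% higher and 27% lower). The median of the members was 1.13, against 0.00 over all genes tested, and 7 members were called with a log2 fold change over 1 (7.69% of all genes). In KO against WT the libraries of 8 members lay above those of WT without overlap and those of none below (28.2% and 27.1% of all genes, 55.3% in all). In KI against WT 5 lay above and 2 below (23.4% and 21.3%, 44.7% in all), and in KO against KI 8 and 1 (24.2% and 24.4%, 48.6% in all). Leaving out 1 library at a time changed no call of a member in KO against WT.

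The median log2 fold changes of the genes on the members' chromosomes ranged from -0.34 for chromosomes 11 and 19 to 0.30 for chromosome 4 in KO against WT. *Pycr1* lies on chromosome 11, *Psat1* on chromosome 19 and *Sesn2* on chromosome 4, so that their log2 fold changes less these medians were 0.60, 0.17 and 0.56. For *Asns* and *Mthfd2* on chromosome 6 the median was 0.09 and the remainders 1.83 and 1.86, and for *Cth* and *Phgdh* on chromosome 3 it was 0.12, leaving 2.29 and 0.60. In KI against WT, *Psat1* stood at -0.81 and *Pycr1* at -1.17 relative to their chromosomes.

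Levels of different genes were compared per kilobase of exon, with lengths from the GENCODE M21 annotation, which may not be the one used for counting. In WT, *Psat1* was the highest member with 165 to 219.8 CPM per kilobase, then *Phgdh* with 80.2 to 103 and *Asns* with 13.5 to 14.9. The next members, from *Shmt2* (5.89 to 7.19) over *Psph*, *Sesn2*, *Cth* and *Pycr1* to *Mthfd2* (2.76 to 3.51), each overlapped with their neighbour, and *Cbs* was lowest with 1.34 to 1.88. In KO, *Psat1* (150.2 to 186) and *Phgdh* (139.8 to 160.1) overlapped, *Asns* reached 52.2 to 57.2, and *Cth* and *Shmt2* overlapped as the fourth and the fifth. *Mthfd2* overlapped with *Psph*, and *Sesn2*, *Pycr1* and *Cbs* followed without overlap. In KI, *Phgdh* (168 to 231) was above *Psat1* (88.8 to 96.05) and *Asns* was the third with 16.3 to 24.7, each without overlap, and *Cbs* and *Pycr1* overlapped at the lower end. *Asns* was therefore the third member in each line, while the order of *Psat1* and *Phgdh* was turned in KI.

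Upstream of the members, the eIF2α kinases and the factors of the ATF4 branch showed 8 genes higher and 2 lower of 15 in KO against WT, where 26.7% of all genes were higher and 28.4% lower, with a median log2 fold change of 0.37. Of the same 15, 2 were higher and 3 lower in KI against WT (21.2% and 21% of all genes), with a median of -0.10. *Atf4* itself had 276, 280.1, 236 and 267 CPM in the KO, 238, 203 and 184 in the WT and 205, 214, 188 and 174 in the KI libraries. KO overlapped with WT at 1 library of each, and KI overlapped with WT. The log2 fold change was 0.32 (SE 0.13, edgeR adjusted p = 0.0547) in KO and -0.10 (SE 0.14, edgeR adjusted p = 0.614) in KI against WT, and 0.44 (SE 0.09, edgeR adjusted p = 0.000719) in KO against KI. The KO value was at the border of the threshold, since it was called at 0.45 without WT 5-6 and at 0.75 with library totals (edgeR adjusted p = 0.0146 and 0.000318). It was also called with all libraries in 1 fit (0.34), with the replicate number as a block (0.30) and with DESeq2's Wald test (0.30). RNA of *Atf4* does not measure its protein, which is set largely by translation. The count of *Asns* per count of *Atf4* was 0.531, 0.540, 0.606 and 0.586 in the KO, 0.171, 0.193 and 0.201 in the WT and 0.308, 0.316, 0.319 and 0.257 in the KI libraries, with no overlap between the lines.

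Several factors that are themselves targets of ATF4 were higher in KO. *Atf5*, a related factor under the same translational control, had 307, 338, 270.0 and 319 CPM in the KO, 30.4, 24.8 and 29.5 in the WT and 53.2, 59.8, 46.9 and 54.5 in the KI libraries, which gave log2 fold changes of 3.43 (SE 0.14, edgeR adjusted p = 6.18e-08) in KO and 0.92 (SE 0.14, edgeR adjusted p = 0.000274) in KI. *Trib3*, a pseudokinase that restrains ATF4, had 62.6, 60.4, 55.6 and 60.4 in the KO, 13.1, 17.8 and 15.01 in the WT and 5.09, 8.68, 7.87 and 6.45 in the KI libraries. It was called in opposite directions, with 1.94 (SE 0.15, edgeR adjusted p = 2.20e-06) in KO and -1.12 (SE 0.20, edgeR adjusted p = 0.000939) in KI. The difference between both was 3.08 (SE 0.14, edgeR adjusted p = 1.67e-10) in KO against KI. The calls of *Atf5* and *Trib3* held in every alternative tried in each comparison.

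*Nupr1*, a stress-induced nuclear protein, rose by 1.99 (SE 0.25, edgeR adjusted p = 7.34e-05) in KO. *Cebpg*, a dimer partner of ATF4, and *Ddit3*, which codes for CHOP, rose there by 1.15 and 1.10 (edgeR adjusted p = 2.89e-05 and 0.000170). In KI the values of *Cebpg* and *Ddit3* were 0.08 and -0.16 without a call. With library totals *Cebpg* was called higher at 0.41 (edgeR adjusted p = 0.0309) and *Ddit3* turned to 0.18 without a call, while without WT 8 *Cebpg* was at -0.01. *Nupr1* was called in KI with 0.82, but lost the call in each of the 5 fits that left out WT 7, WT 8, KI 5, KI 6 or KI 7, with values from 0.55 to 0.83.

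Of the kinases, *Eif2ak1* (heme) and *Eif2ak4* (amino acids) were called higher in KO with 0.46 and 0.53, each losing the call without any 1 of 3 libraries, WT 5-6 and WT 7 among them, with values from 0.38 to 0.50. *Eif2ak2* (double-stranded RNA) had 0.08 and *Eif2ak3* (PERK, endoplasmic reticulum) 0.35 without a call, but with library totals both were called, at 0.51 and 0.75 (edgeR adjusted p = 0.00784 and 0.0161). *Eif2ak3* was also called without WT 8 (0.50, edgeR adjusted p = 0.0244), and its value ranged from 0.19 to 0.50 over the fits that left out 1 library. No kinase was called in KI against WT, except that *Eif2ak2*, at -0.31, was called lower without WT 8 (-0.40, edgeR adjusted p = 0.0223). *Eif2s1*, the substrate eIF2α, fell by 0.69 on the log2 scale in KO (edgeR adjusted p = 0.00632), a call lost with library totals (-0.25). *Atf3* was called lower in both lines (log2 fold changes -0.57 and -0.49), and in both lost the call without WT 7 (-0.36 and -0.31) and with library totals. In KO the call was also lost without KO 5 (-0.50), and in KI it was kept in 1 of the 7 fits that left out a library, the one without WT 8. *Ppp1r15a*, the stress-induced phosphatase subunit that reverses eIF2α phosphorylation, was called higher in KO (0.37) and lower in KI (-0.44). Its KO value was near the threshold, with the call lost without KO 6, KO 7, KO 8 or WT 5-6 (0.29 to 0.41), with DESeq2 size factors (0.35) and without the filter on low counts (0.38). Its KI call was lost without WT 7, KI 5 or KI 8 (-0.43 to -0.37) and with library totals, where the value was -0.11 (edgeR adjusted p = 0.631). The difference of KO from KI was 0.83 (SE 0.11, edgeR adjusted p = 1.67e-05). *Ppp1r15b* and *Cebpb* were called in neither line against WT, but *Ppp1r15b*, at 0.18 in KO, was called there without WT 8 (0.30) and with library totals (0.58), with edgeR adjusted p = 0.0407 and 0.0146. In KO against KI, 11 of the 15 factors were higher and *Eif2s1* was lower (27% of all genes each way).

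**Figure D4:**
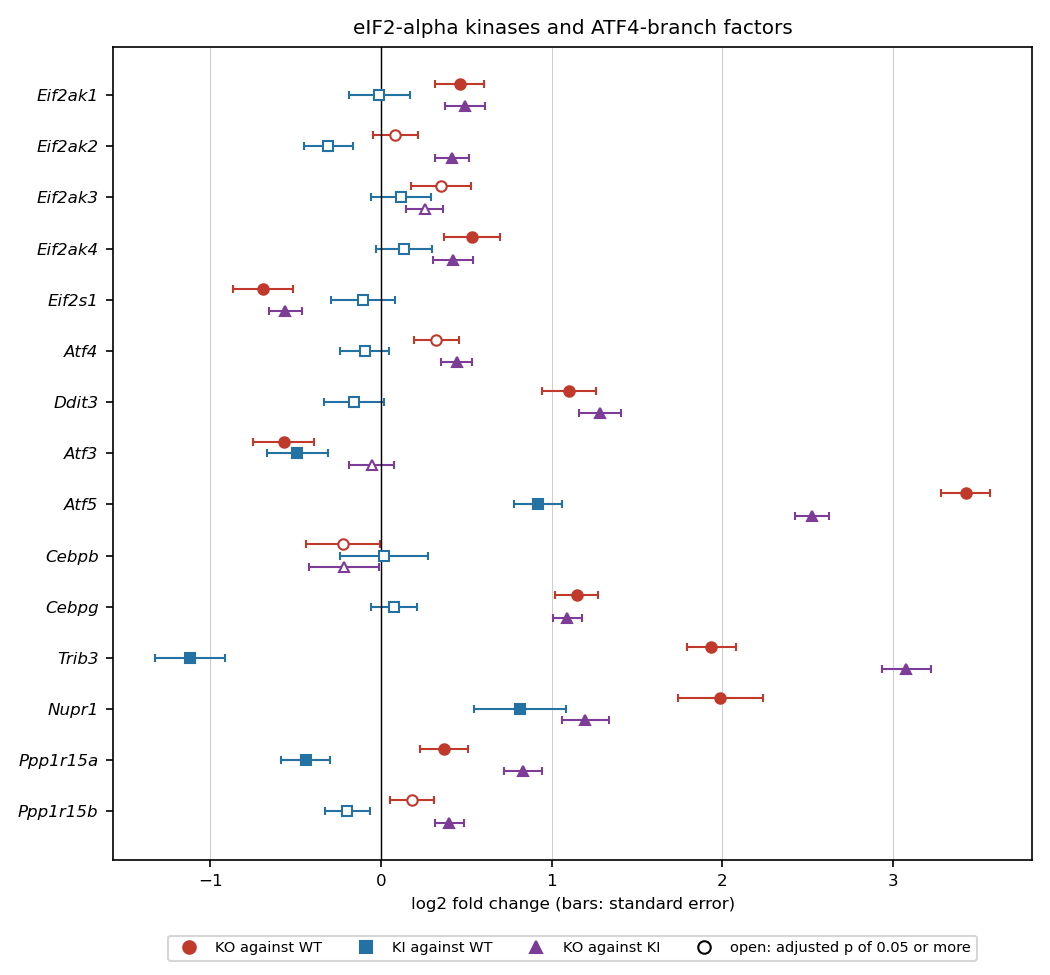
Log2 fold changes (horizontal axis) of the eIF2α kinases and ATF4-branch factors in the 3 comparisons, with standard errors as bars and open symbols where the adjusted p-value was 0.05 or more. *Atf5* lies farthest to the right in KO against WT at 3.43, and *Trib3* lies at 1.94 in KO and -1.12 in KI.

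For the other gene lists, the shares over all genes tested are 55.1% called in KO against WT (26.7% higher and 28.4% lower) and 42.3% in KI against WT (21.2% and 21%). Of 33 other known targets of ATF4 tested, 22 were higher and 4 lower in KO against WT, with a median of 0.86. Of 34 tested in KI, 13 were higher and 4 lower, with a median of 0.30. The number called in both directions together lay near the share over all genes. By direction, the share higher was above 21.2% and the share lower was under 21%. *Slc7a5*, the exchanger of large neutral amino acids, rose from 15.1 ± 0.999 CPM in WT (SD, n = 3) to 81.2 ± 12.97 in KO (SD, n = 4). *Slc1a4*, a carrier of serine and other neutral amino acids, rose from 4.90 ± 1.27 to 25.4 ± 1.67, and the glycine transporter *Slc6a9* from 4.58 ± 0.491 to 18.5 ± 3.64. Their log2 fold changes were 2.41, 2.33 and 1.98. Among those that fell were *Vldlr*, a lipoprotein receptor (-1.45), and *Eif4ebp1*, a repressor of cap-dependent translation (-0.32). *Stc2*, a secreted glycoprotein, fell from 188, 327 and 282 counts in WT to 7, 4, 0 and 0 in KO. In KI, the tRNA synthetase genes *Tars* and *Aars* rose by 1.13 and 1.06 and *Slc1a4* by 1.07. *Stc2* and *Vldlr* fell there, with log2 fold changes of -0.91 and -0.78. *Tars* and *Aars* also rose in KO, by 1.23 and 1.28, and *Slc7a5* also rose in KI, by 0.89.

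Next to the serine enzymes, *Aldh1l2*, *Gnmt* and *Gldc* were called in opposite directions in the edited lines against WT. Of 29 genes of serine, glycine and one-carbon metabolism tested, 15 were higher and 9 lower in KO (median 0.54; all genes 55.1% called), and 15 higher and 6 lower in KI (median 0.44; all genes 42.3% called). *Aldh1l2*, the mitochondrial enzyme that oxidises formyl-folate and also a known ATF4 target counted in both lists, was at 30.2, 36.3, 34.5 and 35.4 CPM in the KO, 7.58, 10.7 and 10.7 in the WT and 2.60, 1.49, 2.06 and 3.83 in the KI libraries. It rose in KO by 1.79 (SE 0.17, edgeR adjusted p = 9.07e-06) and fell in KI, with -1.94 (SE 0.29, edgeR adjusted p = 0.000203), and KO exceeded KI by 3.76 (SE 0.21, edgeR adjusted p = 1.24e-09). *Gnmt*, which methylates glycine, followed the same order with 14.2 ± 1.09 CPM in KO (SD, n = 4), 2.27 ± 0.886 in WT (SD, n = 3) and 0.834 ± 0.125 in KI (SD, n = 4), with log2 fold changes of 2.58 and -1.38. *Gart*, an enzyme of purine synthesis that takes up formyl-folate, rose in both lines by 1.63 and 1.29. *Gldc* fell in KO with a log2 fold change of -0.82 and rose in KI by 0.52, where its libraries overlapped with WT. Like *Aldh1l2*, *Mthfd1l* was counted both here and among the other targets of ATF4.

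Among these 29 genes *Tyms*, thymidylate synthase, *Shmt1*, the cytosolic counterpart of *Shmt2*, and *Mthfd1*, a cytosolic folate enzyme, rose most in KI. Their log2 fold changes were 1.81, 1.79 and 1.70 in KI, and they also rose in KO, by 1.46, 1.05 and 1.52. *Mat1a*, the methionine adenosyltransferase of mature liver, fell from 134, 129 and 165 counts in WT to 14, 16, 17 and 10 in KO and to 0, 3, 22 and 0 in KI, and KI 7 held nearly all counts of that line. *Mat2b*, a subunit of the other methionine adenosyltransferase, fell in both lines, with log2 fold changes of -1.09 and -0.54. *Mthfd2l*, the paralogue of *Mthfd2*, fell in KO (-1.05).

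Of 16 genes around asparagine, glutamate and proline, 7 were higher and 3 lower in KO (median 0.28), and 3 higher and 5 lower in KI (median -0.04), near the 55.1% and 42.3% of all genes that were called. *Prodh*, proline dehydrogenase, which degrades proline, was at 74.6, 62.3, 60.3 and 58.3 CPM in the KO, 6.24, 6.17 and 9.13 in the WT and 13.8, 14.8, 10.6 and 13.2 in the KI libraries, without overlap between the lines. It rose by 3.12 (SE 0.18, edgeR adjusted p = 3.98e-07) in KO and 0.86 (SE 0.20, edgeR adjusted p = 0.00401) in KI. *Aldh18a1*, which opens proline synthesis, rose in KO by 1.12. With *Gpt2* and *Pck2*, which were also higher in KO, *Aldh18a1* was counted among the other targets of ATF4 as well. *Gpt*, an alanine aminotransferase, rose in both by 1.66 and 0.72, and the liver-type glutaminase *Gls2* fell in both, with log2 fold changes of -2.02 and -1.05. *Asrgl1*, an asparaginase, fell in both (-0.51 and -0.50). *Glul*, glutamine synthetase, and *Pck2*, the mitochondrial phosphoenolpyruvate carboxykinase, rose in KO (0.86 and 0.62) and fell in KI (-1.504 and -0.54).

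Of 9 further genes of transsulfuration and of glutathione and sulfide metabolism, 4 were higher and 1 lower in KO (median 0.27), where 55.1% of all genes were called, and 1 was higher and 2 lower in KI (median 0.10), where 42.3% were. The number called in KO lay near that share. *Gss*, glutathione synthetase, rose in KO by 1.497 and *Tst*, a sulfurtransferase, by 0.59. *Gclm*, the modifier subunit of the enzyme that starts glutathione synthesis, rose in both lines by 0.82 and 0.59. *Mpst*, a second sulfurtransferase, fell in both, with log2 fold changes of -0.82 and -0.56, and *Sqor*, which oxidises sulfide, fell in KI (-1.67).

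Around *Sesn2*, the sestrins and the GATOR complexes that relay amino acid supply to mTORC1 showed 4 genes higher and 3 lower of 12 in KO (median -0.17), and 3 higher and 2 lower in KI (median 0.15), near the shares of 55.1% and 42.3% over all genes. *Sesn1*, the paralogue of *Sesn2*, fell in both, with log2 fold changes of -1.02 and -0.73, and *Sesn3* rose in KI by 0.57. The GATOR2 genes *Sec13*, *Mios* and *Wdr24* rose in KO by 1.08, 0.53 and 0.40, of which *Sec13*, also a coat protein of vesicles, rose in KI by 0.93. *Castor1*, the arginine sensor, fell in both (-1.75 and -1.63), and *Seh1l*, a further GATOR2 gene, fell in KO (-0.31).

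**Figure D5:**
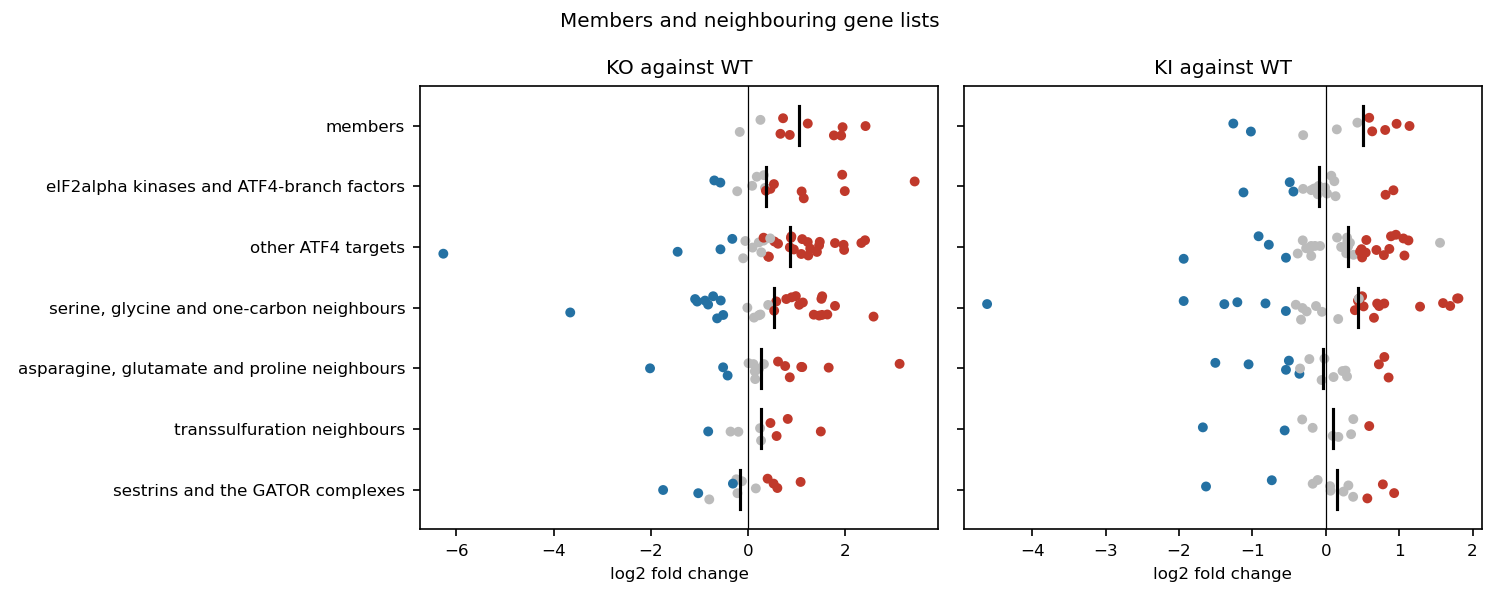
Log2 fold changes (horizontal axes) of the members and of the 6 neighbouring gene lists in KO against WT (left) and KI against WT (right), 1 point per tested gene. Red points were called higher, blue points called lower and grey points not called, and the black line is the median of the list, which for the members was 1.04 in KO and 0.51 in KI.

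The genes whose level followed *Asns* most closely over the 11 libraries, by Pearson's correlation of log2 CPM among 12649 genes, were *Dnaja3* (r = 0.995), *Mesd* (0.992), *Thsd4* (0.987), *Slc7a5* (0.987) and *Osbpl2* (0.984). *Thsd4* had 0 counts in the WT libraries. Of the members, *Shmt2* was the nearest to *Asns* (r = 0.97, place 42), then *Cth* (0.96), *Psph* (0.95) and *Mthfd2* (0.95), and *Psat1* was the farthest (0.19). Nearest to *Psat1* were *Dnajc10* (r = 0.987), *Nostrin* (0.985), *Glt28d2* (0.984), *Lgi3* (0.979) and *Ttpa* (0.978), the last 2 with 0 counts in KI. *Pycr1* was the nearest member to *Psat1* (r = 0.90, place 242), and *Phgdh* ran against it (r = -0.72). The 11 points of each correlation fall into 3 lines and share the scaling, and no test was made.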

How the data were processed

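Polyadenylated RNA of 4 KO, 3 WT and 4 KI libraries of AML12 cells was sequenced by the authors. They deposited 1 table with a line per gene, from which the columns of read counts, without normalization, were used. Per the labels, HISAT2, TopHat2, Bowtie2 and StringTie were used, without versions or roles, and the build and the strand setting of the counting are not given in the sources used here. Columns with FPKM (11), which had lost their decimal points, and the authors' own comparisons with DESeq2 (fold changes and p-values) were not used. Of 26472 lines, 10 broken ones were left out, and entries of the same gene name were summed to 24849 genes.

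Genes passed edgeR's filter on low counts, TMM served for scaling, and differences were tested by the quasi-likelihood test of edgeR (robust, prior count 2, Benjamini-Hochberg, call under 0.05), with the libraries of the 2 lines compared only. Standard errors are the log2 fold change divided by the square root of F. Printed CPM use TMM factors over all 11 libraries. Totals were 30380360 to 38422243 in KO, 29840366 to 30364098 in WT and 32360709 to 35335070 in KI, and no pair of libraries differed by as little as counting noise. R 4.3.3, edgeR 4.0.16, DESeq2 1.42.0, Python 3.11.15 and matplotlib 3.10.9 were used, and the test was tested on simulated data.

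The members and lists were chosen with earlier results of these data known. Named were all members, all tested factors of the ATF4 branch and the 5 genes nearest to *Asns* and to *Psat1*. From each other list up to 3 genes with the largest rise and 3 with the largest fall were named. These were taken from the genes called without overlap in KO or KI against WT. *Gldc* was named in addition, because it was called in opposite directions in the edited lines. *Gpt2* and *Mthfd1l* were named because they stand in more than 1 list. To compare replicate numbers, the mean of each line was first taken from the log2 CPM of each gene. Correlations of these remainders, between libraries with the same replicate number, ran from -0.21 to 0.25 over the comparisons. In KO against WT, the highest were of the same number, KO 8 with WT 8 (0.25) and KO 5 with WT 5-6 (0.19). The lowest there were KO 5 with WT 8 (-0.23) and KO 8 with WT 5-6 (-0.21). No source links the libraries, so they were not paired in the main fits, and a replicate block served as an alternative. For the block in comparisons with WT, replicates 5 and 6 of the edited line were put together with WT 5-6. What the label 5-6 stands for is not given in the sources used here. The alternatives were DESeq2 size factors, library totals, DESeq2's Wald test, no filter, all libraries in 1 fit, a replicate block, removal of the 2 most abundant new entries and leaving out each library.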

Additional observations from a re-analysis of the deposited data

Results flagged for a closer look

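In groups of 4 libraries, the library farthest from the rest was compared with the range of its group for the members and factors, in 50 groups, of which chance would pick about 2.5. It stood apart in 3. *Ddit3* was higher in KO 8 than in the other KO libraries, with a gap of 0.889 of the range, *Atf3* was lower in KO 5 (0.833), and *Cebpg* was higher in KI 8 (0.929). No member was among them.

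*Trib3* and *Ppp1r15a* were called in opposite directions in KO and KI against WT, but the calls of *Ppp1r15a* held in 8 of 14 alternatives in KO and 10 of 14 in KI, with a KI value of -0.11 with library totals. The test of the difference, KO against KI, gave log2 fold changes of 3.082 for *Trib3* and 0.8314 for *Ppp1r15a*, with edgeR adjusted p-values of 1.67e-10 and 1.67e-05.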

How the results depend on the processing

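The number of members called stayed at 8 or 9 in KO against WT, 7 to 9 in KI against WT and 9 or 10 in KO against KI. Calls were added for *Pycr1* (KO against WT) and *Psph* (KI against WT, 0.49) with library totals, and for *Cbs* with library totals (0.75), all libraries in 1 fit (0.43) or without 1 library; no call of a member was lost. The sign turned for 1 member value, *Psat1* in KO against WT with library totals (0.25). Among factors without a call, it turned with library totals for *Cebpb* in KO against WT (0.21), for *Eif2ak1* (0.30), *Eif2ak2* (0.0302), *Eif2s1* (0.25), *Atf4* (0.24), *Ddit3* (0.18) and *Ppp1r15b* (0.12) in KI against WT, and for *Atf3* in KO against KI (0.0120). In KI against WT it also turned for *Cebpb* with size factors (-0.00355), the Wald test (-0.00244) and the replicate block (-0.0257), and for *Eif2ak1* without the filter (0.00249) and with the block (0.00776).

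When each library was left out, KI against WT ranged from -0.11 to 0.16 for *Eif2ak1*, from -0.0582 to 0.24 for *Eif2ak3*, from -0.31 to 0.0771 for *Eif2s1*, from -0.18 to 0.0117 for *Atf4*, from -0.22 to 0.18 for *Cebpb* and from -0.0117 to 0.16 for *Cebpg*, and KO against KI from -0.11 to 0.0101 for *Atf3* and from -0.35 to 0.0123 for *Cebpb*. Over all genes such fits called 6161 to 8449 genes in KO against WT, 4276 to 6969 in KI against WT and 6515 to 7230 in KO against KI. List counts moved most for the factors in KI against WT (2 to 5, lowest without WT 7 or KI 5), its serine neighbours (12 to 24, lowest without WT 7), its transsulfuration neighbours (2 to 5, highest without WT 5-6; 5 with library totals) and the sestrins and GATOR genes (3 to 6 in KI, lowest without WT 5-6 or WT 7, and 4 to 7 in KO against WT, lowest without KO 6 or KO 8). With the replicate block, 8, 7 and 9 members were called, in the same order of comparisons, and it changed no call of a member. In all, 8183, 4891 and 6453 genes were called with the block, against 7362, 5722 and 7171 without it. With the replicate block *Atf4* (0.30) and *Eif2ak3* (0.43) were called in KO against WT and *Atf3* (-0.47) was not in KI against WT. The cause of these differences was not tested. Depth limited no member, while *Stc2* in KO and *Mat1a* in KI were near the floor of 3 counts.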
